A study of Mus musculus with 12 samples.

Results

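The step from DN4 to DP was followed in thymocytes of IkL/L mice, as the log2 signal of 2 IkL/L DP arrays minus that of 2 IkL/L DN4 arrays. These are 4 of the 12 arrays of a study that sorted DN3, DN4 and DP cells from the thymus of IkL/L and wild-type (WT) mice, with 2 arrays for each of the 6 groups. All probe sets with exactly 1 gene symbol were taken, 34958 of 45099, which stand for 18194 genes. Of these, 11649 reached the median of the array on at least 2 of the 12 arrays and were tested, and 6545 did not. The IkL/L mice are homozygous for the L allele of Ikaros (Ikzf1), and the study calls their cells Ikaros-deficient. The allele is known as a hypomorphic insertion allele, so some Ikaros protein can remain, and no age, sorting gate or treatment of the mice is given in the sources used here. The cells of 3 mice were combined for sorting. The sources do not say if replicate arrays were made from different pools, so p-values measure the spread between these arrays. For the IkL/L groups, the Y-linked genes given below differ between the replicates, so these were not made from the same pool.

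DN4 cells lack both the CD4 and the CD8 co-receptor. They are descendants of DN3 cells that made a working T cell receptor (TCR) beta chain, which pairs with the pre-TCR alpha chain and drives a burst of division under Notch and interleukin-7 signals. DP cells carry both co-receptors, most have left the cell cycle, and they reopen the recombinase genes to rearrange the TCR alpha locus. Ikaros binds DNA through zinc fingers and recruits the NuRD and Polycomb chromatin complexes in lymphocytes, and IkL/L mice are known to develop T cell leukaemia with active Notch signalling.

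The labels of the 4 arrays held for the co-receptor genes. Cd4 and Cd8a were high on both IkL/L DP arrays and far lower on both IkL/L DN4 arrays, and the values are given with the leading genes. Most markers of DN cells did not follow the labels. By the test given below, Hes1 was lower in DP cells (log2 -1.82), but Dtx1 was higher (1.41). Ptcra (0.25), Nrarp (0.13), Notch1 (-0.23) and Il2ra (-0.36) did not pass. Y-linked genes were at the floor on replicate 2 of both IkL/L groups (Eif2s3y at 2.95 on DP and 3.12 on DN4) and clearly above it on replicate 1 of both (9.01 on DP and 8.39 on DN4), so the pattern was the same at both stages. The female RNA Xist read 12.67 on DP and 12.56 on DN4 for replicate 2, and 12.19 and 11.02 for replicate 1. Replicate 2 thus read as female cells. Replicate 1 was high for both Xist and the Y-linked genes, as a pool of male and female cells would be. On the WT DP and DN4 arrays Eif2s3y read 7.78 to 9.58 and Xist 10.33 to 12.41, so both were high there too. The part of sex in the results was not tested. A sign of RNA quality is the log2 signal of the 3' actin control minus that of the 5' one, and it was 2.26 and 2.64 in IkL/L DP cells, against 1.93 and 2.39 in IkL/L DN4 cells. The same gap for Gapdh was 3.02 and 3.37 on the DP arrays and 2.26 and 2.54 on the DN4 arrays, so this second gap moved with the stage. Its part in the results was not tested. Of other blood and thymic cells, myeloid markers averaged 4.65 and 4.96 on the IkL/L DP arrays, against 5.15 and 4.65 on the DN4 arrays, with at least 6 of 13 below the array median on each. Erythroid markers averaged 5.19 and 5.50 on the DP arrays, against 6.14 and 5.12 on the DN4 arrays, highest on DN4 replicate 1. There Alas2 read 8.64 and Slc4a1 6.90, against 5.85 and 5.15 on DN4 replicate 2. Hba-a1, Klf1 and Epb42 differed little, and Car2 was highest on the DP arrays (8.44 and 8.86). The myeloid genes S100a8 and S100a9 read 7.09 and 5.66 on DN4 replicate 1, against 4.49 and 3.78 on replicate 2. S100a8 also read 6.43 on DP replicate 2. B cell markers averaged 5.43 and 5.51 against 5.12 and 5.21, stromal markers 4.72 and 4.79 against 4.66 and 4.65, and dendritic markers 5.31 and 5.51 against 5.48 and 5.56.

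The step changed a large part of the transcriptome of IkL/L cells. With limma, 5298 of 11649 genes passed a Benjamini-Hochberg adjusted p of 0.05, which is 45.5% of those tested. In DP cells 2270 genes were higher than in DN4 cells (19.5% of those tested) and 3028 were lower (26%). "Rose" and "fell" are used below for genes past this threshold, and counts of list members are to be read against these 2 shares. A log2 difference of at least 1, or 2-fold, was reached by 857 of the risen genes (7.36% of those tested) and 1247 of the fallen genes (10.7%). The balance of large changes depended on the cutoff. By at least 2 on the log2 scale 171 genes rose and 162 fell, by at least 3 it was 56 and 27, and by at least 5 it was 1 and 3. In a sorted population, a change in the share of cells that carry an RNA and a change in the RNA of each cell cannot be told apart. Of the 857 genes, 70 lay below the median on both IkL/L DN4 arrays, and of the 1247, 87 lay below it on both IkL/L DP arrays, so for these the change in RNA may be larger than measured. The filter let 14 genes through on the strength of the IkL/L DP arrays alone, and these could only be found higher in DP cells. Genes that passed on DP arrays of both genotypes but on no DN array have the same limit and were not counted.

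The co-receptor genes led the rises. Cd8a, which encodes the alpha chain of CD8, read 12.85 and 12.52 on the IkL/L DP arrays, against 6.90 and 6.68 on the IkL/L DN4 arrays, a 59.4-fold difference (log2 5.89 ± 0.23 SE, adjusted p = 3.76e-08). Cd8b1, the beta chain, read 12.70 and 12.41 in DP cells, against 7.86 and 7.78 in DN4 cells (log2 4.73). Cd4 read 11.13 and 10.57 in DP cells, against 6.50 and 6.51 in DN4 cells (log2 4.34, 20.3-fold). Both DP arrays stood far above both DN4 arrays for each of the 3 genes. The other leading rises reached well beyond T cell identity. They included Adam12, a membrane metalloproteinase (log2 4.87), Spo11, the enzyme that makes meiotic DNA breaks (4.71), and Abca1, which exports cholesterol to lipoproteins (4.57). Lsp1, a leukocyte actin-binding protein, rose by 4.49, and Slc7a11, the cystine importer, by 4.38. Papss2, which makes the sulphate donor PAPS, rose by 4.32, Tmie by 4.21, the synaptotagmin Syt14 by 4.20, the pseudokinase Trib2 by 3.97, the cytokine signal inhibitor Socs3 by 3.96, the maltase Mgam by 3.92 and the surface glycoprotein Cd52 by 3.92. For Adam12 the DN4 arrays read 3.69 and 3.73, among the lowest signals on the array, so its 29.2-fold difference may be a lower limit. Both DN4 arrays were below their median also for Syt14, Slc7a11 and Mgam, with the same limit. Adam12, Syt14, Slc7a11 and Mgam were below the median on all DN3 and DN4 arrays. They passed the filter on DP arrays alone and could only be found higher in DP cells.

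Stress and growth genes led the falls. Hspa1a, an inducible HSP70 chaperone, read 5.19 and 4.65 on the IkL/L DP arrays, against 11.49 and 10.11 on the IkL/L DN4 arrays, a 59-fold difference (log2 -5.88 ± 0.53 SE, adjusted p = 4.38e-06). Its near-identical neighbour Hspa1b read 8.17 and 6.47 against 12.86 and 12.46 (log2 -5.34), and probes of the pair may read each other's RNA. For both genes the arrays of a group differed by more than 1 log2 unit in places. Gja1, the gap junction protein connexin 43, read 3.98 and 3.93 in DP cells, against 9.23 and 9.38 in DN4 cells (log2 -5.35, 40.9-fold). The AP-1 subunits Jun and Fos fell by 4.17 and 4.06 on the log2 scale. Others were Plac8 (log2 -4.49), the orphan receptor Gpr25 (-4.30), Ydjc (-3.62), the lysine methyltransferase Smyd2 (-3.59), the D-type cyclin Ccnd2 (-3.58), the transcription factor Maf (-3.55), the spermidine synthase Srm (-3.42), the TCR gamma gene Trgv4 (-3.40), Scpep1 (-3.33) and the ETS factor Etv5 (-3.33). These 30 leading genes were picked on these arrays as the largest called differences with no overlap between the stages. All 30 kept their calls when any 1 of the 12 arrays was left out, which is not independent of that choice. For Gja1, Jun, Etv5 and Ydjc both DP arrays were below their median, so these falls may be lower limits too. Gja1, Etv5 and Ydjc passed the filter on DN arrays alone, so they could only be found lower in DP cells. Other probe sets of some leading genes differed by much less: Scpep1 at -0.76, Etv5 at -0.80 and -0.84, Maf at -0.77 on 1 of 2 others, Socs3 at 0.96 on 1 of 2, Ccnd2 at -0.69 and -1.66 on 2 of 6, and Gja1 at -0.91 on 1 of 4.

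**Figure D1:**
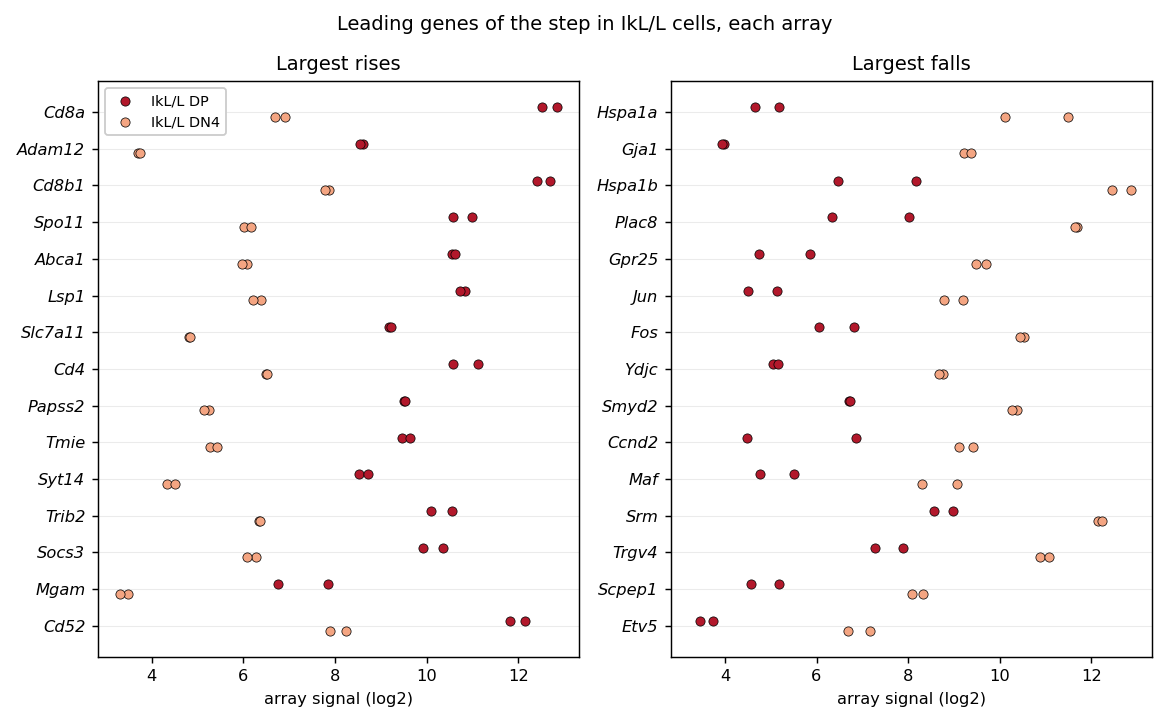
Signal of each IkL/L DP array and each IkL/L DN4 array (log2, horizontal axis) for the 15 named genes with the largest rises (left) and the 15 with the largest falls (right). The genes were picked for having no overlap between the points of the 2 stages, and DP points spread most for Ccnd2, Hspa1b and Plac8.

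Promoter sequences are shown for the leading genes of the step, so that the letters before each start site can be set beside the values. They come from RefSeq on build GRCm38.p6 and run 250 bases upstream to 50 bases downstream of the start, 5' to 3' on the gene's strand. Capitals mark the 7 motifs that were searched on both strands: TGGGAA (core of Ikaros sites), GTGGGAA (RBPJ, the DNA-binding partner of Notch, and TGGGAA is part of it), CAGGTG (E proteins), AGGTCA (ROR factors), GCGGGAA (E2F), CCAAT, and GAANNTTC (heat shock factors), which was added after the leading genes were seen. Cd8a (chr6:71373177-71373476, plus strand) and Abca1 (chr4:53159846-53160145, minus strand) rose. Hspa1a (chr17:34972107-34972406, minus strand) and Gja1 (chr10:56377050-56377349, plus strand) fell.
Cd8a: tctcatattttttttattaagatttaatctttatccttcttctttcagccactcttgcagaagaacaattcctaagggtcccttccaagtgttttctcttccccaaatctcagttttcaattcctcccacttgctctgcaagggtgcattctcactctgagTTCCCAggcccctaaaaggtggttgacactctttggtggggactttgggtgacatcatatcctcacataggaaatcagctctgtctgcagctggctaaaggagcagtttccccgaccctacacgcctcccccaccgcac
Abca1: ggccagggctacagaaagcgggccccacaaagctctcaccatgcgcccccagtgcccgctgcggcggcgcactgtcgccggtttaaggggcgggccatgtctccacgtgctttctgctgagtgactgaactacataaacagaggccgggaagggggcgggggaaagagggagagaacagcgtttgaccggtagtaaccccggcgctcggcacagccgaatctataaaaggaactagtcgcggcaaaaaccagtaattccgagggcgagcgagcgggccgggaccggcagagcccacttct
Hspa1a: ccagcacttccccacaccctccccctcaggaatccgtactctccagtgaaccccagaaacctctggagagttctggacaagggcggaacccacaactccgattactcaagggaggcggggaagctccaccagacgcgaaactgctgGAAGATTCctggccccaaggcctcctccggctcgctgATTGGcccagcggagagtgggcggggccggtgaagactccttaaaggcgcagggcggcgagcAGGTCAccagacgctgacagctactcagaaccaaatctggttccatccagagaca
Gja1: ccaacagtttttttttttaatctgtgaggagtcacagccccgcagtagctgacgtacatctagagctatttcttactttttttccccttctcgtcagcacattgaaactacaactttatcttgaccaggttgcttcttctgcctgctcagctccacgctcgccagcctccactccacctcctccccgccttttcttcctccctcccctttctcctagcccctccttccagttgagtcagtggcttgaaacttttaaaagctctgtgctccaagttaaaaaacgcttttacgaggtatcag

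The Cd8a promoter held TGGGAA once, and the Hspa1a promoter held AGGTCA once, CCAAT once and GAANNTTC once. None of the 7 motifs was in these windows of Abca1 and Gja1. Over all 32851 promoters of the table, TGGGAA was in 25.6%, GTGGGAA in 6.38%, CAGGTG in 20.2%, AGGTCA in 16.3%, GCGGGAA in 4.6%, CCAAT in 37.4% and GAANNTTC in 7.86%. A match is a description of the letters and not a binding site. TGGGAA was in 22.9% of the 690 promoters of genes risen by at least 1, in 22.9% of the 1035 of genes fallen by at least 1 and in 22.8% of the 9454 of tested genes, so the share hardly moved. GCGGGAA was in 5.22% of the risen, 14.4% of the fallen and 8.48% of all tested genes' promoters.

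Most listed DP genes rose in IkL/L cells. Of 29 tested genes known from DP cells, 27 rose and none fell, against 19.5% risen and 26% fallen over all tested genes. The median log2 difference was 1.79, against -0.04 over all tested genes. Like the other lists, this one was drawn up with earlier results of these data known, so the count is a description. Rag1 and Rag2, the recombinase that cuts TCR gene segments, read 13.90 and 13.87 and 11.17 and 10.97 in IkL/L DP cells, against 12.04 and 12.15 and 8.91 and 8.75 in IkL/L DN4 cells. Rag1 rose by 1.79 and Rag2 by 2.24 on the log2 scale, with no overlap between the stages. Bcl6, a transcriptional repressor high in DP cells, rose by 3.17 and the ETS factor Ets2 by 2.72. Plxnd1, a semaphorin receptor of DP cells, rose by 3.22. Ccr9, the receptor for the thymic chemokine CCL25, read 13.09 and 13.22 in DP cells, against 9.76 and 10.15 in DN4 cells (log2 3.20). Dntt, which adds untemplated bases at TCR joints, was high at both stages, 13.98 and 13.94 in DP cells against 13.60 and 13.59 in DN4 cells. Its log2 difference of 0.37 passed the test (adjusted p = 0.019) but not when any 1 of the 4 IkL/L DN4 or DP arrays was left out (adjusted p up to 0.0883).

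Of 35 tested genes of the TCR complex and its proximal signalling, 23 rose and none fell (median log2 0.75). Cd5, a brake on TCR signals, rose by 2.17, the adhesion receptor Cd2 by 2.02, the kinase Tec by 1.77 and the Ras activator Rasgrp1 by 1.70. Nfatc2 rose by 1.67 and the phosphatase Ptpn22 by 1.52, but the dimmer probe sets of Nfatc2 differed by 0.03 and -0.07. Cd3e read 10.32 and 10.29 in IkL/L DP cells and 10.24 and 9.89 in IkL/L DN4 cells, a log2 difference of 0.24 that did not pass the test (adjusted p = 0.398). The other CD3 genes Cd3d and Cd3g differed by 0.45 (adjusted p = 0.0737) and -0.30 (adjusted p = 0.212), and Cd247, the zeta chain, rose by 1.21. Ptcra, which encodes the pre-TCR alpha chain, read 10.03 and 10.05 in DP cells and 9.77 and 9.81 in DN4 cells (log2 0.25, adjusted p = 0.329). In the list of recombination and end joining genes, 4 of 16 rose and 7 fell. Besides Rag1, Rag2 and Dntt the ligase Lig4 rose (0.99), whereas the Ku subunit Xrcc5 fell by 1.77 and the histone H2ax by 0.98.

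Transcription factors of the T lineage rose more often than they fell, at 20 and 5 of 45 (median log2 0.35). Egr2 rose by 3.01 and Egr1 by 1.54, both immediate targets of TCR signals, and Klf13 rose by 1.54. Bcl11b, required for T cell commitment, rose by 0.65 and the Ikaros family member Ikzf3, which encodes Aiolos, by 1.03. Gata3 fell by 0.80. Runx1, Lef1, Tox and Zbtb7b, which encodes the CD4-lineage factor ThPOK, lay within 0.17 log2 units of no difference and did not pass the test. Of the 5 dimmer probe sets of Runx1, however, 1 differed by -1.13 (adjusted p = 0.000414) and 1 by 0.65 (adjusted p = 0.00395) when each probe set was tested on its own, so the gene's value depends on the probe set. Ikzf1 itself read 11.75 and 11.56 in IkL/L DP cells, against 11.22 and 11.18 in IkL/L DN4 cells (log2 0.46, adjusted p = 0.00876). This call was lost without IkL/L DN4 replicate 2 or IkL/L DP replicate 1 (adjusted p up to 0.0835), and the dimmer of its 2 probe sets differed by -0.10.

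Immediate early genes split. Of 34 tested, 12 rose and 7 fell (median log2 0.13). Jun read 5.13 and 4.51 in IkL/L DP cells, against 9.21 and 8.78 in IkL/L DN4 cells, and Fos read 6.06 and 6.81 against 10.54 and 10.44. Klf4, a factor of quiescent cells, fell by 2.27, though its dimmer probe set differed by -0.28. Beside Egr1 and Egr2, the antiproliferative gene Btg2 rose by 2.09. The receptors of cytokines with their kinases and inhibitors rose in 19 of 39 cases and fell in 7 (median log2 0.48). Socs3 read 9.92 and 10.35 in DP cells, against 6.28 and 6.08 in DN4 cells, and Socs1 rose by 0.77. Il6st, the shared receptor chain of the interleukin-6 family, rose by 1.5, Ifngr2 by 1.31 and Tgfbr2 by 1.29. Dimmer probe sets differed by 0.09 and 1.58 for Il6st, 0.18 for Ifngr2 and 0.11 for Tgfbr2. Il7r, the interleukin-7 receptor that DP cells lose, read 5.62 and 7.72 in IkL/L DP cells, against 8.76 and 8.56 in IkL/L DN4 cells (log2 -1.99, adjusted p = 0.00502). The DP arrays stood far apart for this gene, with both below the DN4 arrays.

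The genes of cell division fell almost throughout. Of 54 tested genes of DNA replication, 51 fell and none rose (median log2 -1.41), and the other 3, Rpa1, Orc4 and Orc5, differed by -0.30, -0.02 and -0.02. Gins2, a part of the replicative helicase, read 7.84 and 7.56 in IkL/L DP cells, against 9.96 and 9.97 in IkL/L DN4 cells (log2 -2.27 ± 0.16 SE, adjusted p = 7.52e-07). Tyms, which makes thymidylate, fell by 2.10, the histone chaperone subunit Chaf1b by 2.07, Gins1 by 2.04 and the polymerase subunits Pola1 and Pold2 by 2.03 and 2.02. Of 60 tested genes of mitosis and the spindle, 56 fell and 1 rose (median log2 -1.12). Aurkb, the Aurora kinase of chromosome segregation, read 8.13 and 7.91 in DP cells, against 10.15 and 10.32 in DN4 cells (log2 -2.22), and the kinetochore gene Cenph fell by 2.43. The riser was Pttg1, which encodes securin (0.64). Levels stayed high for some: the division marker Mki67 read 13.11 and 12.74 in DP cells, against 13.43 and 13.47 in DN4 cells. Its log2 difference of -0.53 lost its call without IkL/L DN4 replicate 2 or IkL/L DP replicate 2 (adjusted p up to 0.123). Pcna fell by 0.82.

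Regulators of G1 moved in opposed ways. Of 33 tested, 10 rose and 17 fell. Ccnd2 read 4.49 and 6.87 in IkL/L DP cells, against 9.41 and 9.12 in IkL/L DN4 cells. Cdk4 fell by 2.10, its relative Cdk6 by 1.31, E2f6 by 1.77 and E2f1 by 1.17. The rises included cell cycle inhibitors: Cdkn1b, which encodes p27, rose by 1.37, Cdkn1c, which encodes p57, by 2.02, and the antiproliferative gene Btg1 by 2.32. Ccnd3, the D-type cyclin of pre-TCR-driven division, read 11.56 and 11.28 in DP cells and 11.01 and 11.07 in DN4 cells (log2 0.38, adjusted p = 0.258), but its 2 dimmer probe sets differed by 3.09 and 0.88.

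Promoters are shown for the 2 genes of DNA replication with the largest falls among those the sequence table holds, a choice made after the values were seen, because the E2F letters were commoner in this list. GCGGGAA was in 37.8% of its 45 promoters and CCAAT in 55.6%, against 8.48% and 38.9% for all tested genes. For the 51 promoters of mitosis genes the shares were 11.8% and 72.5%. Tyms lies at chr5:30073576-30073875 (minus strand) and Chaf1b at chr16:93883651-93883950 (plus strand), both on GRCm38.p6, with capitals for the same 7 motifs.
Tyms: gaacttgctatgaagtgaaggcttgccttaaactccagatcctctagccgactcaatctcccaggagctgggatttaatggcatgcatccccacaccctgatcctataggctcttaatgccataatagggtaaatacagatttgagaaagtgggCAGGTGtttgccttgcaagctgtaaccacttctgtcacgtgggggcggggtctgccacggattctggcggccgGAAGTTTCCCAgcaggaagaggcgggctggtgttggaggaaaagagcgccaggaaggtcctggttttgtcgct
Chaf1b: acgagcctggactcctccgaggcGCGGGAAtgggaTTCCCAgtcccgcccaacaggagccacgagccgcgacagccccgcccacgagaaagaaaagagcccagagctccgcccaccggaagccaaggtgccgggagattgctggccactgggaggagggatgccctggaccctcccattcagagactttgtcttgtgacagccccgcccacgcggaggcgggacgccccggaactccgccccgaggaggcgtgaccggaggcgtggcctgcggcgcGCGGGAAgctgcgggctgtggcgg

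The Chaf1b window held GCGGGAA at 2 places and TGGGAA at 1. The Tyms window held TGGGAA once, CAGGTG once and GAANNTTC once and no GCGGGAA, and its TGGGAA letters overlap those of GAANNTTC.

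Growth and metabolism fell with division. Myc, a Notch target that drives ribosome production and glycolysis, read 6.87 and 7.52 in IkL/L DP cells, against 10.40 and 10.40 in IkL/L DN4 cells (log2 -3.20 ± 0.23 SE, 9.19-fold, adjusted p = 7.99e-07). Of 47 tested genes of the Myc network and ribosome biogenesis, 39 fell and 3 rose (median log2 -1.43). The nucleolar proteins Nop58, Nolc1 and Gnl3 fell by 2.64, 2.37 and 2.33 and the RNA polymerase I subunit Polr1b by 2.36. The 3 risers, Mxd4 (3.25), Mxd1 (1.30) and Mxi1 (0.64), encode repressors that compete with Myc for its partner Max. Mxd4 read 11.34 and 11.44 in DP cells, against 8.18 and 8.10 in DN4 cells. Of 23 tested genes of glucose uptake and glycolysis, 10 fell and 1 rose. Hk2, which traps glucose in the cell, fell by 2.54, Pgam1 by 2.19 and Pfkl by 2.01, while Ldhb rose by 2.20. Of 48 nuclear genes of oxidative phosphorylation, 27 fell and none rose, by less (median log2 -0.36), and Uqcrq had the largest fall at 0.99. Cholesterol synthesis genes fell in 15 of 22 cases (median log2 -0.85), led by Idi1 at -2.28 and Sqle at -1.93. Among carriers of amino acids and iron, Slc7a5, which imports leucine, fell by 2.95 and the transferrin receptor Tfrc by 1.86, but Slc7a11 and the neutral amino acid carrier Slc6a19 rose by 4.38 and 3.01.

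Chaperones fell in 23 of 30 cases and rose in 3 (median log2 -0.73). Besides the HSP70 pair, Hsph1 fell by 2.12, the mitochondrial chaperonin Hspd1 by 1.87 and Hspa9 by 1.78, and all 8 tested subunits of the cytosolic chaperonin fell. Dnajb4 rose by 1.82. Of 23 tested p53 targets, 11 rose and 3 fell (median log2 0.57): the death receptor Fas read 8.37 and 8.02 in IkL/L DP cells, against 5.23 and 4.70 in IkL/L DN4 cells (log2 3.23), and the RNA-binding protein Zmat3 rose by 2.82. In the Bcl2 family, the survival gene Bcl2l1, which encodes Bcl-xL, read 11.11 and 10.99 in DP cells, against 9.01 and 9.01 in DN4 cells (log2 2.04). Mcl1 rose by 1.56 and Bcl2 fell by 1.24, but the dimmer probe sets of Bcl2 differed by -0.23, -0.84, -0.63 and -0.21. The death inducers Bmf and Bcl2l11, which encodes Bim, rose by 3.55 and 1.23, and Bid fell by 1.24.

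**Figure D2:**
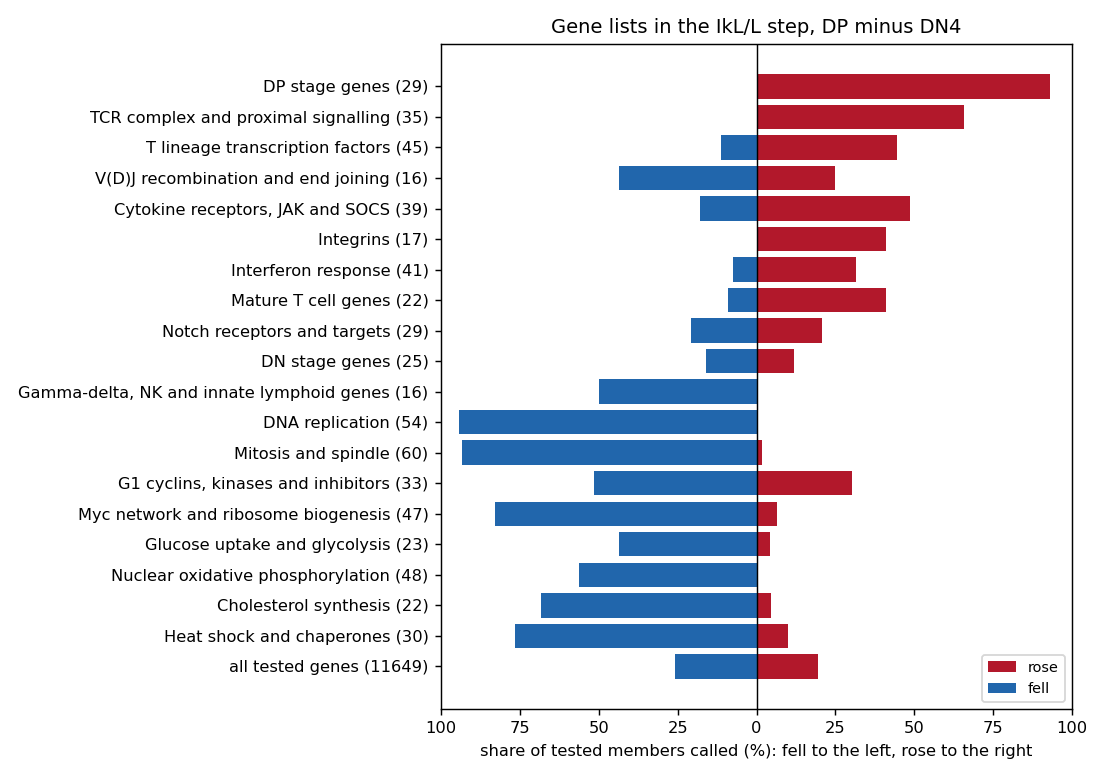
Share of the tested members of each gene list (number in parentheses) that rose, to the right, or fell, to the left, in IkL/L DP cells relative to IkL/L DN4 cells (limma adjusted p under 0.05). The lowest bar gives all 11649 tested genes, of which 19.5% rose and 26% fell, and the lists share some genes.

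Adhesion and surface genes of later T cells rose in part. Of 17 integrin genes, 7 rose and none fell, led by Itgb2 (1.68) and Itgal (1.56), the chains of LFA-1, and by Itgav (1.56). Dimmer probe sets differed by 0.63 for Itgal and -0.11 for Itgav. Of 22 genes of mature T cells, 9 rose and 2 fell. Besides Cd52 and Cd5, Gimap6, a survival GTPase of lymphocytes, rose by 2.26. Cd69, an early activation marker, read 7.24 and 8.37 in IkL/L DP cells, against 5.67 and 6.50 in IkL/L DN4 cells (log2 1.72, adjusted p = 0.0113). Its call was lost without IkL/L DN4 replicate 1 or IkL/L DP replicate 2 (adjusted p up to 0.123). Ccr7, the exit receptor of mature cells, read 4.83 and 6.11 in DP cells and 5.01 and 4.90 in DN4 cells, with overlapping groups. Interferon response genes rose in 13 of 41 cases and fell in 3, led by Epsti1 (2.28) and the GTPase Igtp (1.80). In the list of MHC class I and antigen processing, 7 of 19 fell and 3 rose, among them Psmb9 (-0.85) and the CD1 gene Cd1d1 (1.5). Of 39 Polycomb and NuRD subunits, the complexes that Ikaros recruits, 18 fell and 5 rose (median log2 -0.34). The NuRD genes Chd3 and Mta1 both fell by 1.47 and Mta3 by 1.31, Ezh2 fell by 0.77, and its relative Ezh1 rose by 1.09. The dimmer probe sets of Mta3 differed by -0.20 and -0.14.

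Notch genes as a list moved much as all tested genes did. Of 29 tested Notch receptors, regulators and targets, 6 rose and 6 fell (median log2 -0.02). Over all tested genes 19.5% rose and 26% fell (median log2 -0.04). Notch1 was among the brightest genes at both stages, 12.84 and 12.77 in IkL/L DP cells and 12.82 and 13.24 in IkL/L DN4 cells, and its log2 difference of -0.23 did not pass the test (adjusted p = 0.268). A dimmer probe set of Notch1 differed by -1.01. Notch3 (0.06) and the target Nrarp (0.13) also missed the threshold. The target Hes1 read 5.70 and 6.05 in DP cells, against 7.36 and 8.04 in DN4 cells (log2 -1.82). The target Dtx1 went the other way, at 9.04 and 10.21 in DP cells, against 7.98 and 8.46 in DN4 cells (log2 1.41, adjusted p = 0.00274), although its dimmer probe set differed by -0.34. Of 25 genes known from DN cells, 4 fell and 3 rose (median log2 -0.01), to be read against the same shares. Hes1, Il7r, Uaca and the stem cell factor receptor Kit fell, and the call of Kit (log2 -0.86) was lost without any 1 of the 4 IkL/L DN4 or DP arrays (adjusted p up to 0.0985). Il2ra, the DN3 marker CD25, was already low, at 4.56 and 5.07 in DP cells and 5.08 and 5.27 in DN4 cells.

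Of 16 tested genes of gamma-delta and innate lymphocytes, 8 fell and none rose (median log2 -0.82). Trgv4 read 7.27 and 7.90 in DP cells, against 10.89 and 11.08 in DN4 cells, and Trgv1, another gamma variable gene, read 6.85 and 7.88 against 9.96 and 10.52 (log2 -2.88). Probes of related gamma variable genes may read each other's RNA. Sox13, a factor of gamma-delta cells, fell by 1.59. Gzma, a protease of cytotoxic granules, fell by 1.36 but stayed bright, at 11.41 and 11.46 in DP cells against 12.71 and 12.89 in DN4 cells. Cd163l1, which encodes a scavenger receptor of gamma-delta cells, read 5.56 and 9.35 on the 2 DP arrays and 8.56 and 9.51 on the DN4 arrays, so its groups overlapped.

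The same step was then set beside that of WT cells, in which DP was compared with DN4 in the same way. In WT cells 6638 genes were called (57% of those tested), 2768 higher in DP cells (23.8%) and 3870 lower (33.2%), and 4676 genes were called with the same sign in both genotypes, which is 88.3% of the IkL/L calls and 70.4% of the WT calls. The steps ran on separate arrays and share none. The SD of the step over all tested genes was 0.82 in IkL/L and 0.98 in WT cells, and this gap was not tested. In WT cells the 3' to 5' gap of actin was 2.86 and 2.29 at DP, against 1.74 and 1.93 at DN4. That of Gapdh was 3.40 and 3.83 against 2.01 and 2.53. With the actin measure as a covariate, 5594 genes were called in IkL/L and 5986 in WT cells. The part of RNA quality in the size of the steps was not tested. The counts of called genes by genotype do not test a difference, so the difference of the 2 steps was tested directly. It passed for 115 genes, 0.987% of those tested, with the step higher in IkL/L cells for 77 (0.661%) and lower for 38 (0.326%). The step was the larger one in IkL/L cells for 41 of the 115 and in WT cells for 74. Of the 115, 64 moved the same way in both genotypes, 14 moved in opposed directions with both steps past the threshold, 15 passed in IkL/L cells alone and 22 in WT cells alone. With a second quantile normalization of the arrays, 127 were higher and 34 lower. With the actin measure of RNA quality as a covariate, 100 were higher and 86 lower. The number depended on single arrays. It was 36 without WT DN4 replicate 2 and 54 without WT DN4 replicate 1. Without IkL/L DN4 replicate 1 or 2 it was 50 or 45. It was 49 without IkL/L DP replicate 2, 76 without WT DP replicate 1, and 205 without either IkL/L DN3 array, which enter through the shared spread alone.

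**Figure D3:**
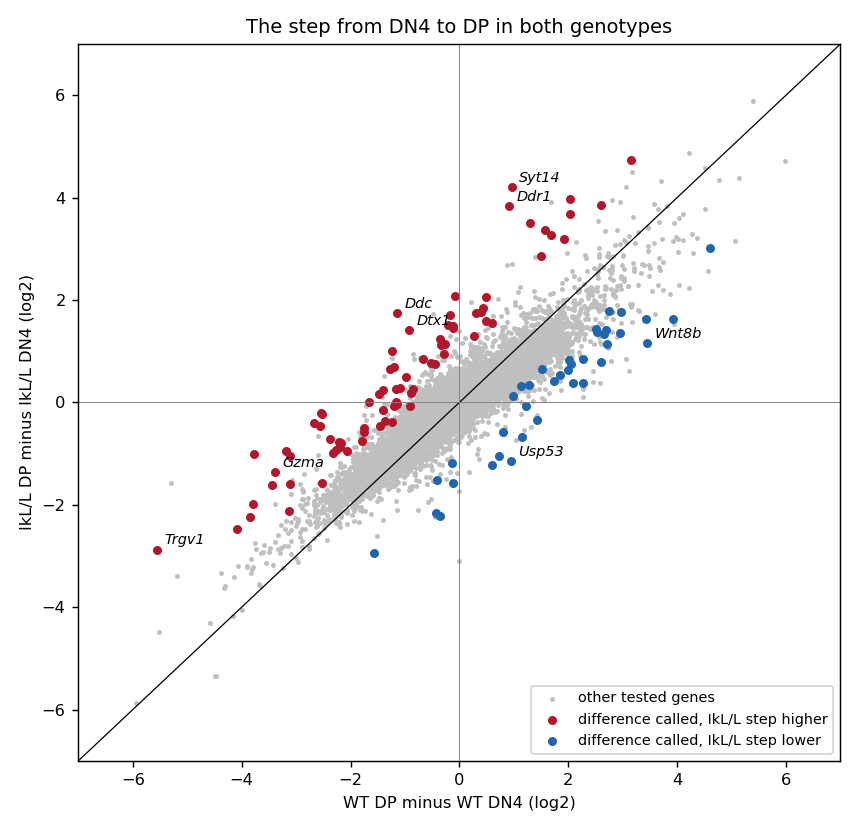
Difference between DP and DN4 cells in IkL/L mice (vertical axis, log2) against the same difference in WT mice (horizontal axis, log2), 1 point for each of 11649 tested genes, with the line of equal steps. Coloured points are the 77 genes whose step was higher in IkL/L cells and the 38 whose step was lower, by the test of the difference.

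The widest gap was that of Syt14, a member of the synaptotagmin family of membrane traffic proteins. It read 8.52 and 8.73 in IkL/L DP cells, against 4.34 and 4.51 in IkL/L DN4 cells, while WT DP cells read 5.0 and 5.14, against 4.21 and 4.01 in WT DN4 cells. The step was 4.20 in IkL/L and 0.96 in WT cells, a difference of 3.24 ± 0.20 (SE, adjusted p = 3.28e-05). Syt14 is 1 of the 14 genes that entered the test on the strength of the IkL/L DP arrays alone, so it could only be found higher there. Ddr1, a collagen receptor kinase, read 9.06 and 9.53 in IkL/L DP cells, against 5.61 and 5.32 in IkL/L DN4 cells, and 5.91 and 6.68 in WT DP cells, against 5.18 and 5.58 in WT DN4 cells. Its steps differed by 2.91 (adjusted p = 0.00252). The IkL/L DP arrays stood above the other 6 for both genes. Of the 4 other probe sets of Ddr1, 1 rose by 5.58 in IkL/L cells and 3 differed by 0.20 to 0.31. Sertad4 had steps of 3.51 in IkL/L and 1.30 in WT cells (difference 2.20, adjusted p = 0.0175). Trib2 rose by 3.97 in IkL/L and by 2.03 in WT cells (difference 1.94, adjusted p = 0.00706). Syt14, Ddr1, Sertad4 and Pdgfrb belong to a list of genes chosen on these arrays for being high in IkL/L cells, and Trib2, Ddc, Nkg7 and Rufy2 to one chosen for being low in them, so their differences are not independent of that choice.

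The promoters of Syt14 (chr1:193035726-193036025, minus strand) and of Ddr1 (chr17:35704550-35704849, minus strand, the first of 4 in the table) are shown as those of the leading genes of the difference, on GRCm38.p6 with the same capitals.
Syt14: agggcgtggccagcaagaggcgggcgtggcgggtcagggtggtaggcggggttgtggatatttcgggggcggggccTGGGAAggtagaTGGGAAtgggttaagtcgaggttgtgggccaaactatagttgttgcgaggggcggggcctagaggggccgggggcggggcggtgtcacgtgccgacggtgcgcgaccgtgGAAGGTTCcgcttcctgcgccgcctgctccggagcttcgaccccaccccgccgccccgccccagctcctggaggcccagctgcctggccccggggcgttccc
Ddr1: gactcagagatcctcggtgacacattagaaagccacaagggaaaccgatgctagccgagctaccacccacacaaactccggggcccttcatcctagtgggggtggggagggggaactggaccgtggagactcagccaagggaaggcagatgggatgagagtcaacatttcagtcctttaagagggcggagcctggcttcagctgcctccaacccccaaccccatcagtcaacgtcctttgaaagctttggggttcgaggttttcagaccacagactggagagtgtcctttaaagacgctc

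The Syt14 window held TGGGAA at 2 places and GAANNTTC at 1, and the Ddr1 window held none of the 7 motifs. TGGGAA was in 23% of 61 promoters of genes with a higher step in IkL/L cells and in 29.0% of 31 with a lower step, against 22.8% for tested genes.

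Several genes moved in opposed directions in the 2 genotypes. Ddc, which makes dopamine and serotonin from their precursors, read 6.12 and 5.39 in IkL/L DP cells, against 4.16 and 3.87 in IkL/L DN4 cells. In WT cells it read 4.33 and 4.56 at DP, against 5.51 and 5.66 at DN4. The steps were 1.74 in IkL/L and -1.14 in WT cells (difference 2.88, adjusted p = 0.00236), and the groups of each genotype did not overlap. Dtx1 rose by 1.41 in IkL/L cells and fell by 0.92 in WT cells (difference 2.33, adjusted p = 0.0311), but its dimmer probe set gave a difference of -0.31. Ncf4, a subunit of the phagocyte NADPH oxidase, rose by 1.01 in IkL/L cells and fell by 1.24 in WT cells (difference 2.25, adjusted p = 0.0305). In the other direction, Usp53 read 5.94 and 5.99 in IkL/L DP cells, against 7.01 and 7.22 in IkL/L DN4 cells, and 6.89 and 6.42 in WT DP cells, against 5.79 and 5.62 in WT DN4 cells (difference -2.10, adjusted p = 0.00236). Med12l, the X-linked noncoding RNA gene Ftx and the ribosomal protein gene Rpl12 fell in IkL/L cells by 1.22, 0.68 and 1.04 and rose in WT cells by 0.59, 1.15 and 0.73. The steps of Ncf4, Ftx and Rpl12 in IkL/L cells lost their calls without IkL/L DP replicate 2, those of Ncf4 and Ftx also without IkL/L DN4 replicate 2, and that of Ftx without IkL/L DP replicate 1 (adjusted p up to 0.195).

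Other differences were falls that were smaller in IkL/L cells, or missing. Trgv1 fell by 2.88 in IkL/L cells and by 5.55 in WT cells, with WT DP cells at 5.29 and 4.53 (difference 2.67, adjusted p = 0.0252). Gzma fell by 1.36 in IkL/L cells and by 3.39 in WT cells, with WT DP cells at 9.61 and 9.04 and WT DN4 cells at 12.81 and 12.62 (difference 2.03, adjusted p = 0.00424). Nkg7, a cytotoxic granule protein, read 5.07 and 5.34 in IkL/L DP cells and 5.34 and 5.52 in IkL/L DN4 cells (log2 -0.22, adjusted p = 0.456), whereas WT cells read 5.31 and 5.09 at DP, against 7.53 and 7.92 at DN4 (difference 2.30, adjusted p = 0.00492). For Nkg7 the DP arrays of the genotypes overlapped and the WT DN4 arrays stood above the other 6 of the DN4 and DP arrays. On the DN3 arrays Nkg7 was higher still, at 8.81 and 8.14 in IkL/L cells and 10.38 and 10.05 in WT cells. Pdgfrb, the PDGF receptor beta, stayed at 8.23 and 8.97 in IkL/L DP cells, with 9.0 and 8.99 in IkL/L DN4 cells, and fell by 2.68 in WT cells (difference 2.28, adjusted p = 0.0255), though its dimmer probe set gave a difference of 0.03. Cenpv differed by -0.21 in IkL/L cells and fell by 2.54 in WT cells (difference 2.33, adjusted p = 0.0336). Over the 16 tested gamma-delta and innate genes the median step was -0.82 in IkL/L and -2.56 in WT cells, and 3 had a higher step in IkL/L cells by the test of the difference: Gzma, Nkg7 and the unnamed transcript 5830411N06Rik.

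Another set rose less in IkL/L cells than in WT cells. Wnt8b, a Wnt ligand, read 7.62 and 7.93 in IkL/L DP cells, against 6.38 and 6.86 in IkL/L DN4 cells, and 8.27 and 8.75 in WT DP cells, against 5.05 and 5.07 in WT DN4 cells (difference -2.29, adjusted p = 0.00706). Gramd3 rose by 1.62 in IkL/L and by 3.43 in WT cells, and the transcript BB031773 by 1.63 and by 3.92. BB031773 reached the array median on the WT DP arrays alone. Rufy2 read 5.37 and 5.02 in IkL/L DP cells and 4.80 and 4.82 in IkL/L DN4 cells, without passing the test, and rose by 2.27 in WT cells. Slc4a5, a bicarbonate transporter, fell in IkL/L cells, at 3.92 and 3.71 in DP cells, against 6.24 and 5.85 in DN4 cells, and IkL/L DN3 cells read 6.19 and 6.16. In WT cells it read 3.76 and 3.57 at DP and 3.83 and 4.20 at DN4 (difference -1.87, adjusted p = 0.00361). The TCR kinase Tec rose by 1.77 in IkL/L and by 2.97 in WT cells (difference -1.20, adjusted p = 0.0288).

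**Figure D4:**
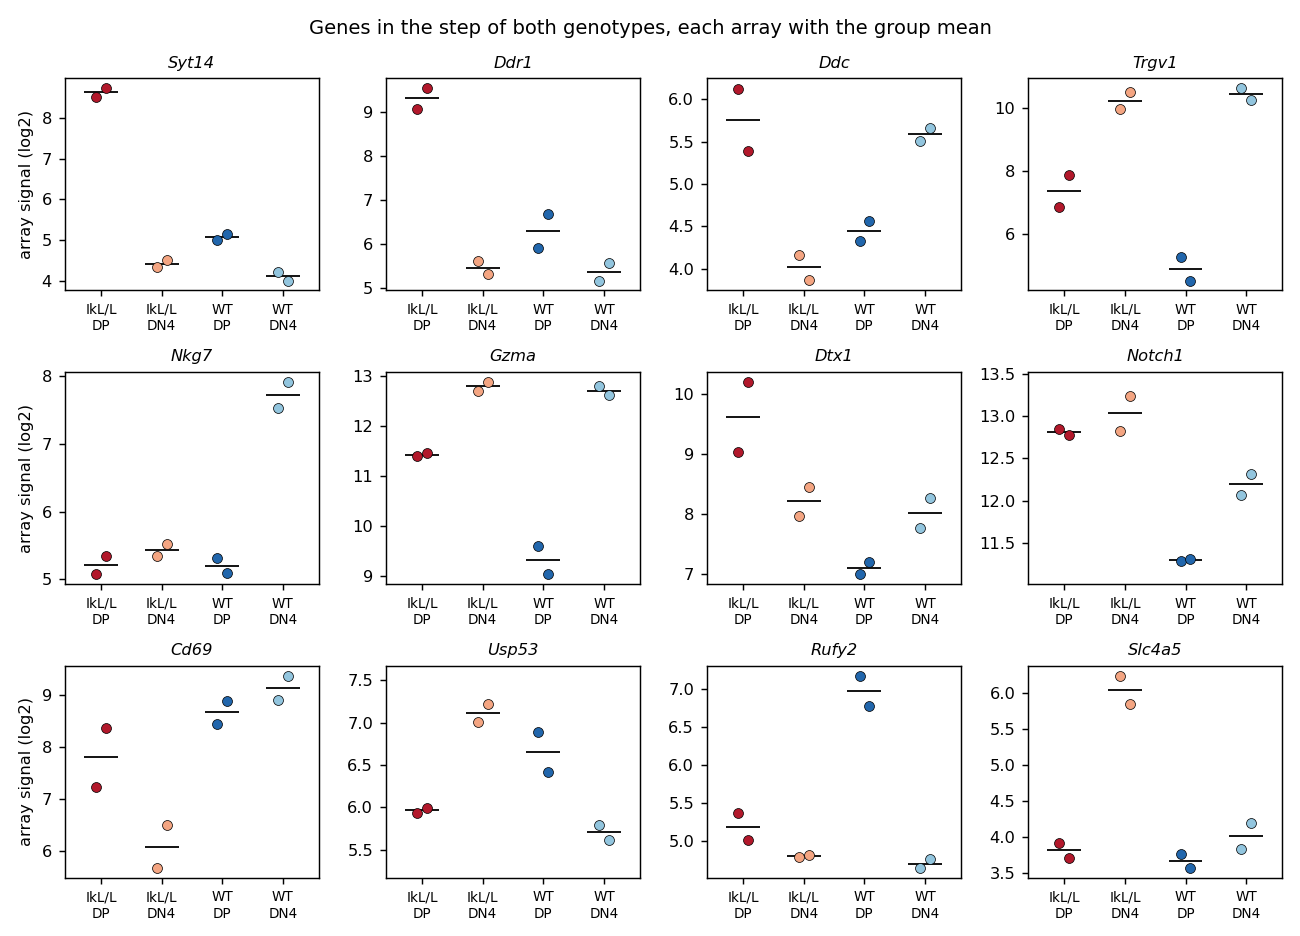
Signal of each array (points, log2, vertical axis) and the mean of each group (line) for 12 genes in IkL/L DP, IkL/L DN4, WT DP and WT DN4 cells. Syt14 and Ddr1 are high in IkL/L DP cells alone, Nkg7 is high in WT DN4 cells alone, and the vertical scale differs between panels.

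Of the 18 named genes of the difference, 9 kept their call without each of the 12 arrays in turn: Syt14, with the limit given above, Ddr1, Ddc, Nkg7, Wnt8b, Usp53, Rufy2, Slc4a5 and Med12l. The other 9 lost it without at least 5 arrays. Trgv1 lost it without IkL/L DP replicate 2, IkL/L DN4 replicate 1, WT DP replicate 2 or either WT DN4 array (adjusted p up to 0.105). Dtx1, Cenpv, Pdgfrb, Ncf4, BB031773, Ftx, Gramd3 and Rpl12 lost it without WT DN4 replicate 2 and without either IkL/L DN4 array, among others, with adjusted p up to 0.203. Among genes of the lists, Gzma kept its call without each array (adjusted p up to 0.0286), while Tec lost it without any WT array, IkL/L DN4 replicate 1 or IkL/L DP replicate 2 (adjusted p up to 0.127).

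Of the 29 DP genes, 2 were called in the difference between the genotypes, Cd8b1 and Ccr9. The difference of the step was -0.42 for Cd4 (95% interval -1.03 to 0.19), 0.50 for Cd8a (-0.21 to 1.21), -0.43 for Rag1 (-0.95 to 0.09) and -0.46 for Rag2 (-1.02 to 0.11), so these data leave room for differences near 1 log2 unit. For Cd8b1 the DN4 levels set the genotypes apart. IkL/L DP cells read 12.70 and 12.41 and WT DP cells 12.69 and 12.56, whereas IkL/L DN4 cells read 7.86 and 7.78 and WT DN4 cells 9.40 and 9.55. Its difference of 1.58 passed the test (adjusted p = 0.0424) but lost its call without any 1 of 10 arrays, all except the IkL/L DN3 pair (adjusted p up to 0.201). Ccr9 had the same pattern, with WT DN4 cells at 11.42 and 11.55 and a difference of 1.28 (adjusted p = 0.023). Its 4 dimmer probe sets gave differences of 0.90, 1.16, -0.61 and -0.94, so the sign depends on the probe set, and the call was lost without IkL/L DP replicate 2, IkL/L DN4 replicate 1 or either WT DN4 array (adjusted p up to 0.136).

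The median step over a gene list was -1.41 in IkL/L and -1.29 in WT cells for DNA replication, -1.12 and -1.18 for mitosis, and -1.43 and -1.66 for Myc and ribosome biogenesis, with 0 members of these 3 lists called in the difference. For Notch genes it was -0.02 in IkL/L cells (6 of 29 fell) and -0.34 in WT cells (14 fell), with Dtx1 the 1 member called in the difference. For DN genes it was -0.01 in IkL/L cells (4 of 25 fell) and -0.58 in WT cells (15 fell), again with Dtx1 alone called. Of all tested genes, 26% fell in IkL/L and 33.2% in WT cells. The dimmer probe set of Dtx1 gave a difference of -0.31, so its place in both lists rests on the brighter one. Notch1 differed by -0.23 in IkL/L and fell by 0.89 in WT cells, a difference of 0.67 (95% interval 0.19 to 1.14, adjusted p = 0.184). Ptcra differed by 0.25 in IkL/L and fell by 0.99 in WT cells (difference 1.24, adjusted p = 0.06), with IkL/L DP cells at 10.03 and 10.05 and WT DP cells at 8.06 and 8.76. Nrarp (difference 0.90, adjusted p = 0.0848) and Cd69 (2.20, adjusted p = 0.161) did not pass either. Myc fell in both, and its difference of 0.86 missed the threshold (adjusted p = 0.247).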

How the data were processed

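RNA of sorted thymocytes was measured on 12 one-colour expression arrays, 2 for each of 6 groups. The authors deposited log2 values from RMA (background correction, quantile normalization and probe set summary) per the submitters' processing notes, which give no version. Total RNA was labelled in 2 cycles from unequal amounts in 3 labelling series, per the labels' protocols, and which array belongs to which series is not given in the sources used here, so no batch term could be fitted.

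Of 45099 probe sets, 34958 had 1 gene symbol in the platform annotation, 932 had several and 9209 none. The brightest probe set over all arrays stood for each gene. Other probe sets are given for some genes only, so where none is given they may still differ. Genes at or above the array median on at least 2 arrays were tested in limma 3.58.1 (R 4.3.3) with 1 mean per group over all 12 arrays, residual df 6, prior df 5.67, and Benjamini-Hochberg adjustment over all 11649 genes. The contrasts were IkL/L DP minus IkL/L DN4, the same in WT, and their difference. The procedure was tested on simulated data. The number of arrays limits the precision, and arrays give no read depth.

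Named genes were the 15 largest rises and falls with no overlap between stages, the 10 largest differences from WT in each direction (symbols of Rik, Gm, LOC, BC and AK kinds skipped, as unnamed transcripts, but keeping their place), up to 6 called members and 3 called differences of each list, and a fixed set of stage genes. Motif shares, and the pair of promoters from the DNA replication list, are descriptions. The members, gene lists and tests were chosen with earlier results of these data known. Alternatives were other filters, probe set rules, priors, array weights, normalizations, a replicate block, an actin covariate and leaving out each array. Leaving out the DN3 arrays and the motif GAANNTTC were added after seeing the data.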

Additional observations from a re-analysis of the deposited data

Results flagged for a closer look

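The step from DN4 to DP differed between IkL/L and WT cells for 115 genes by limma's test of the difference itself, and the 18 named genes among them are given here as log2 differences of the steps, IkL/L minus WT. The step was higher in IkL/L cells for Syt14 (3.24), Ddr1 (2.91), Ddc (2.88), Trgv1 (2.67), Dtx1 (2.33), Cenpv (2.33), Nkg7 (2.30), Pdgfrb (2.28) and Ncf4 (2.25). It was lower for Wnt8b (-2.29), BB031773 (-2.29), Usp53 (-2.10), Rufy2 (-1.89), Slc4a5 (-1.87), Ftx (-1.83), Med12l (-1.81), Gramd3 (-1.80) and Rpl12 (-1.77). Syt14 entered the test on the strength of the IkL/L DP arrays alone, so it could only be found higher in them, and BB031773 on that of the WT DP arrays alone. Syt14, Ddr1, Ddc, Nkg7, Wnt8b, Usp53, Rufy2, Slc4a5 and Med12l kept the call without each of the 12 arrays, and the other 9 lost it without at least 5 of them.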

How the results depend on the processing

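The step in IkL/L cells called 5298 genes, and between 4136 and 5569 when each array was left out. It called 8721 probe sets when each of them was tested on its own, a larger number of tests, and 2104 genes with a minimum log2 difference of 1. For the WT step these counts were 6638, 5406 to 6896, 11601 and 2861. The difference between the genotypes called 115 genes (67% higher in IkL/L), 36 to 205 when each array was left out, 75 with a filter at the 75th percentile and 186 with the actin covariate (53.8% higher). The second quantile normalization gave 161 (78.9% higher) and moved the median WT step to -0.22 from -0.15 and the median difference to 0.14 from 0.04. The cause was not tested. With the replicate block the counts were 5254 for the IkL/L step, 90 for the difference (63 higher and 27 lower) and 6585 for the WT step. The block took the call from the IkL/L steps of Tcf3 (adjusted p = 0.054) and H2-K1 (0.0509) and from the differences of Pdk1 (0.0682), Bst2 (0.063), Pcgf3 (0.0579) and Tubb3 (0.0534). The labels do not say that a number marks shared mice. Deviations of same-numbered arrays correlated at 0.01 between IkL/L DN4 and DP, 0.49 between DN3 and DN4 and 0.09 between DN3 and DP, and in WT at 0.27, 0.32 and 0.15. Between genotypes r was -0.34 to 0.06. So not every pair was over 0.1 and the main fit has no block, although the Y-linked genes were at the floor on replicate 2 of all 3 IkL/L groups. The block was 1 term shared by both genotypes, so it could not show the effect of pairing within a genotype. Such a pairing was not tested. Of the comparisons of single named genes with an alternative, 6000 kept direction and call, 317 lost the call, 15 gained it and 20 changed sign. The sign changes were all in steps that missed the threshold. When the probe sets of each gene were averaged, they were Sema4a (-0.24), Notch3 (-0.21), Nrarp (-0.11), Tox (-0.12) and Runx1 (-0.21), with the second quantile normalization Notch1 (0.01), and with the actin covariate Sema4a (-0.06) and Runx1 (-0.02). When each array was left out, the step ranged over -0.54 to 0.12 for Cenpv, -0.22 to 0.54 for Runx3, -0.24 to 0.26 for Sema4a, -0.15 to 0.26 for Notch3, -0.21 to 0.34 for Tox, -0.08 to 0.18 for Zbtb7b, -0.04 to 0.11 for Runx1, -0.41 to 0.08 for Lef1 and -0.13 to 1.16 for Ccr7. Without the DN3 arrays, an alternative chosen after seeing the data, the counts were 5317, 132 and 6602 for the IkL/L step, the difference and the WT step. Signals below the array median may give lower limits of a change, which was not tested.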
